A study of Mus musculus with 22 samples.

Results

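Bafilomycin A1 was given to cultured mouse microglia together with lipopolysaccharide (LPS), and the 5 RNA libraries of that group, LPS+Baf A1, were set against the 3 libraries of microglia given LPS alone. These 8 of the 22 libraries of the series were chosen by their titles. All 11070 genes that reached 1 FPKM in at least 3 of the 22 libraries were tested, where FPKM (fragments per kilobase of transcript, scaled to the mapped fragments of the library) is a level that can be compared between genes. The starting tissue was the cerebral cortex of C57BL/6 pups, cultured as mixed glia, from which microglia, the resident macrophages of the brain, were detached by shaking. Every culture of the series received LPS at 100 ng/ml for 24 h, controls included, so no group shows unstimulated cells. The LPS+Baf A1 group had bafilomycin A1 at 10 nM in addition. The other groups were LPS+CLA (CLA at 50 nM, n = 6), LPS+siAtg5 (an siRNA against Atg5 at 50 nM for 48 h before the treatment, n = 5) and LPS+dNC (n = 3), the comparator of LPS+siAtg5 in the design, read here as the group given the NC siRNA that the protocol names, also for 48 h. The 17 other libraries used as a reference below thus include 8 read as transfected. CLA and dNC are not spelled out in the labels. Nothing in the labels says whether the libraries of a group came from separate cultures or animals, so a p-value here reflects the spread among these libraries and nothing wider, and that spread may be technical.

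Bafilomycin A1 is a macrolide that blocks the vacuolar proton pump (V-ATPase). This pump acidifies lysosomes and endosomes, and without it lysosomal proteases lose activity, autophagosomes that fuse with lysosomes are not degraded, and iron and cholesterol are released poorly from endocytosed cargo. The lysosome is also a signalling platform: amino acids recruit mTORC1 to its surface, and stress of the organelle sends the MiT/TFE transcription factors to the nucleus, where they raise lysosomal and autophagy genes through the CLEAR motif. LPS acts through CD14 and Toll-like receptor 4, which signals from the plasma membrane to NF-kB and AP-1 and from endosomes to interferon beta and the genes that interferon induces.

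Of the 11070 genes, 3619 (32.7%) were called higher and 2776 (25.1%) lower in LPS+Baf A1 than in LPS, at an adjusted p under 0.05 by limma. Most of these differences were small, and 223 genes in each direction (2.01% higher and 2.01% lower) were called with a change of at least 2-fold on the scale of log2(FPKM + 1). The libraries of both groups did not overlap for 30.8% of genes with LPS+Baf A1 above and 21.9% with it below. All 5 LPS+Baf A1 libraries lay above the 17 other libraries of the series for 2.55% of genes and below them for 4.8%. Counts of gene lists below are read against these shares, and the median log2 change of 0.0386 over all genes stands beside the medians of the lists. Where a list has 0 calls in a direction, 0 of its members had an unadjusted p under 0.05 in that direction by limma either.

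**Figure D1:**
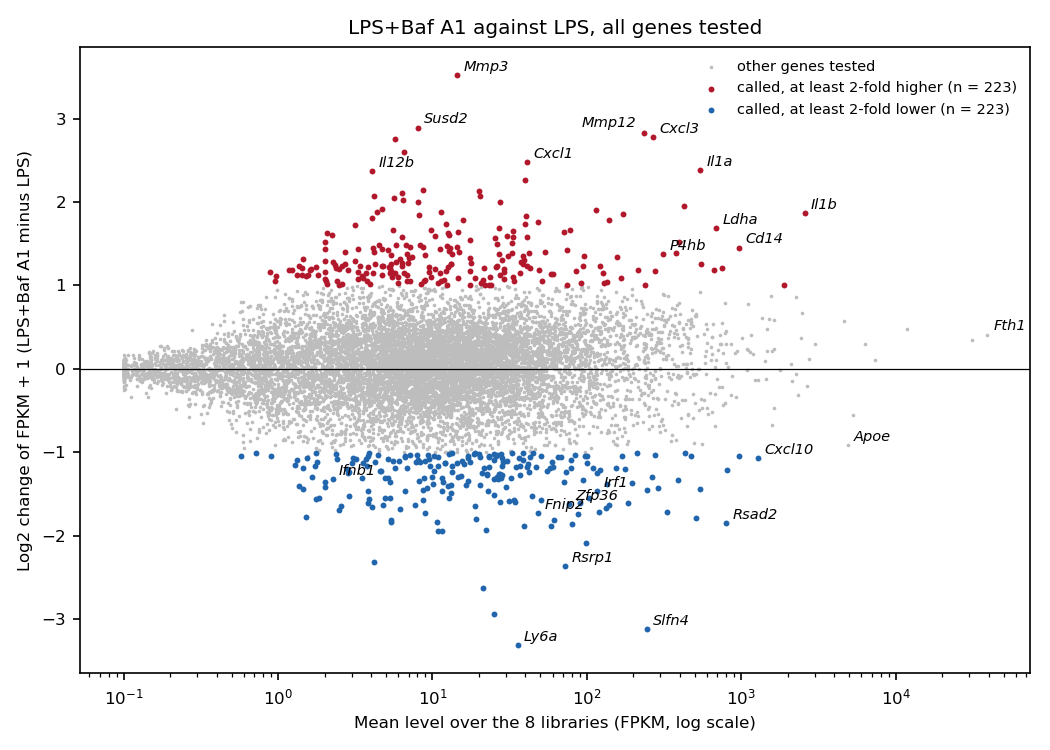
Each point is 1 of the 11070 genes tested, with its mean level over the 8 libraries of LPS and LPS+Baf A1 on the x axis (FPKM, log scale, values below 0.1 drawn at 0.1) and its log2 change on the y axis (LPS+Baf A1 minus LPS on log2(FPKM + 1)). Coloured points are the 223 genes called at least 2-fold higher and the 223 called at least 2-fold lower, and labels name genes described in the text; Slfn4 and Ly6a are the lowest labelled points and Mmp3 the highest.

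LPS replicate 3 lay apart from its group. Taken over genes, the SD of the log2 difference was 0.158 between LPS replicates 1 and 2, 0.273 to 0.284 between replicate 3 and either of them, 0.154 to 0.179 between LPS+Baf A1 libraries, and 0.457 to 0.539 between the groups. Without LPS replicate 3, 3433 genes were called higher and 3001 lower. The change also followed the makeup of the transcripts: in 5 equal bins of GC content the median log2 change was -0.175 in the lowest and 0.12 in the highest, and in 5 bins of transcript length it was 0.14 in the shortest and -0.0579 in the longest. After removal of each library's trend with GC content and length, 3560 genes were called higher and 2705 lower, and 5231 of the 6395 calls remained with their direction. What gives this trend was not tested. In bulk RNA, fewer cells of a type and less RNA per cell cannot be told apart.

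Genes of the pump that Baf A1 targets did not move together. Of 20 V-ATPase subunits and accessory proteins tested, 6 were called higher and 6 lower, with a median log2 change of 0.0031. These shares of 30% each are near the 32.7% and 25.1% of all genes, so as a list they do not stand apart. Atp6v0c encodes the membrane ring subunit where bafilomycin binds. Its level was 585, 625 and 698 FPKM in the LPS libraries and 778, 811, 769, 774 and 761 FPKM in the LPS+Baf A1 libraries, a log2 change of 0.30 (SE 0.0656, adjusted p = 0.000535). Atp6v1e1, of the stalk that links the ATPase head to the membrane, was at 157, 163 and 182 FPKM with LPS and 233, 232, 228, 237 and 237 FPKM with Baf A1 (0.48, adjusted p = 2.85e-09). For both genes every LPS+Baf A1 library was above every LPS library. The opposite held for Tcirg1, the a3 form of the large membrane subunit, at 213, 227 and 251 FPKM against 134, 141, 146, 140.3 and 143 FPKM (-0.70, adjusted p = 4.46e-10).

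Lysosomal hydrolases were more often higher than lower. Among 36 lysosomal hydrolases and saposins, 20 were called higher and 3 lower (55.6% and 8.33%, median 0.208). Among 16 cathepsins and their inhibitors 6 were higher and 4 lower. Those shares of 37.5% and 25% are near the 32.7% and 25.1% of all genes. Gusb (beta-glucuronidase) and Ppt1 (palmitoyl-protein thioesterase) rose by 0.75 and 0.62 on the log2 scale. Gla, alpha-galactosidase A, fell from 72.8 ± 7.3 to 43.8 ± 4.63 FPKM (SD, n = 3 and 5, log2 change -0.72, adjusted p = 3.68e-06). The cathepsins split by member. Ctsd, an aspartic protease, was at 1745, 1749.5 and 1972 FPKM in the LPS libraries and 2859.9, 2952, 2854, 2923 and 2896 FPKM with Baf A1 (0.67), but 32.4% of its 50-base windows also occur in other genes. Ctsz rose from 1175 ± 94.1 to 1638 ± 18.9 FPKM and was above all 17 other libraries. Ctss, a protease that cuts the invariant chain, fell from 1985 ± 217 to 1435 ± 35.8 FPKM (-0.46), and Lgmn, the asparaginyl endopeptidase legumain, from 759.6 ± 32.5 to 522 ± 25.2 FPKM (-0.54). Ctsb (1778 against 1767 FPKM) and Ctsl (346 against 333 FPKM) were not called. With the GC and length trend removed, 6 hydrolases were called lower in place of 3.

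The 33 lysosomal membrane proteins and ion transporters gave 10 calls in each direction (30.3% each, near the 32.7% and 25.1% of all genes). Lamp1, the most abundant of them per length, was at 849, 842 and 889.9 FPKM in the LPS libraries and 982, 998, 998, 999 and 1001 FPKM in the LPS+Baf A1 libraries. The difference of 0.21 (adjusted p = 2.33e-05) was small, but all 5 libraries were above the other 17. Cd63 rose by 0.63. Cln3, the gene mutated in juvenile Batten disease, fell from 86.2 ± 8.76 to 54.3 ± 2.47 FPKM (-0.65), and the lysosomal nucleoside transporter Slc29a3 from 39.4 ± 1.9 to 25.5 ± 0.941 FPKM (-0.61). The CLEAR letters TCACGTGA, searched on both strands of the 250 bases before the start of the gene, were present in 3 of 27 promoters of this list and in 1.89% of the 8990 tested genes with a promoter in the RefSeq table. They were in 1 of 30 promoters of the hydrolase list, 2 of 13 of the cathepsin list and 0 of 27 of the list of MiT/TFE and mTORC1 genes. Of genes called at least 2-fold higher 1.07% of promoters held them, and of those called at least 2-fold lower 3.78%.

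The folliculin complex fell with Baf A1, and Tfeb and Tfe3 did not change past the test. FLCN and its partners FNIP1 and FNIP2 form the complex at the lysosome that activates RagC and so lets mTORC1 keep TFEB and TFE3 in the cytosol. Fnip2 was at 101, 97.2 and 62.9 FPKM in the LPS libraries and 24.6, 22.7, 26.8, 24.6 and 26.6 FPKM in the LPS+Baf A1 libraries, a log2 change of -1.73 (SE 0.107, adjusted p = 7.83e-12). Fnip1 was at 25.3, 22.9 and 18.9 against 7.94, 7.48, 8.1, 7.42 and 8.16 FPKM (-1.4), and Flcn at 35, 34.7 and 32.2 against 14.9, 13.4, 14, 14.6 and 14.8 FPKM (-1.19). No LPS+Baf A1 library overlapped an LPS library for any of the 3 genes, and LPS replicate 3 was the lowest of its group for each. Rragc, which encodes RagC, fell by 0.50 and Mitf by 0.50 on the log2 scale. Tfeb was at 3.94 ± 0.085 against 3.86 ± 0.318 FPKM and Tfe3 at 86.1 ± 5.58 against 92.5 ± 4.05 FPKM, and neither was called (adjusted p = 0.839 and 0.0778). Tfe3 was called higher when LPS replicate 2 or LPS+Baf A1 replicate 1 was left out (adjusted p = 0.0175 and 0.0436). Lamtor4, a subunit of the scaffold that holds the Rag proteins on the lysosome, rose from 17.6 to 31.8 FPKM (0.82), and the MITF target Gpnmb fell from 335 ± 15.4 to 202 ± 6.17 FPKM (-0.72). In all, 8 of 28 genes of the MiT/TFE and mTORC1 list were called higher and 10 lower. Without LPS replicate 3 the 8 became 4, without a change in the 10.

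Genes that start autophagosomes were called higher in 15 of 35 and lower in 6 of 35 cases, against 6 and 7 of 27 for autophagy receptors and fusion factors. The shares called higher were 42.9% and 22.2%, on either side of the 32.7% of all genes. With the GC and length trend removed, 12 of 35 and 9 of 27 were called higher and 7 and 10 lower. Atg5, which makes the conjugate that lipidates LC3, rose from 20.1 ± 0.292 to 24.6 ± 0.773 FPKM (0.28, adjusted p = 3.29e-05). Wipi1, a phosphoinositide reader on the forming membrane, was at 1.9, 2.33 and 1.74 FPKM with LPS and 4.09, 4.31, 3.63, 4.07 and 4.77 FPKM with Baf A1 (0.79). Rb1cc1, the scaffold FIP200 of the ULK1 kinase complex, was at 14, 15.1 and 12.7 against 8.42, 5.54, 6.18, 6.48 and 7.8 FPKM (-0.93). The groups did not overlap for any of these. Map1lc3b, the LC3 gene used most as an autophagosome marker, was not called at 49.96 ± 2.81 against 53.7 ± 2.16 FPKM (adjusted p = 0.093, and 0.034 without LPS replicate 3). Sqstm1, the receptor p62, whose protein is known to build up when lysosomal degradation stops, was lower in mRNA, at 502, 531 and 613 against 423, 460.4, 453, 446 and 446 FPKM (-0.29, adjusted p = 0.00925). It was not called without LPS replicate 3 (adjusted p = 0.0799). Of the other receptors, Optn fell by 0.74 and Tax1bp1 by 0.55, both below all 17 other libraries, and the mitophagy receptor Bnip3 rose from 20.1 ± 2.78 to 50.9 ± 3.79 FPKM (1.31).

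The list of interleukin-1 and inflammasome genes split, with the cytokine genes Il1a and Il1b among those that rose and the protease genes Casp1 and Casp4 among those that fell. Il1a was at 129, 159.8 and 153 FPKM in the LPS libraries and 884, 869, 607, 750.5 and 771 FPKM with Baf A1, 5.27-fold in group means (log2 change 2.38, SE 0.218, adjusted p = 1.16e-08). Il1b was at 884, 970.4 and 1059.6 FPKM against 3742, 3925, 3021, 3528 and 3540.2 FPKM, 3.66-fold (adjusted p = 9.38e-10). Both were higher in every LPS+Baf A1 library than in any LPS library, and replicate 3 was the lowest of the LPS+Baf A1 group for each. The receptor antagonist Il1rn fell from 725 ± 126 to 519 ± 12.2 FPKM (-0.47, adjusted p = 0.000331). Casp1, the protease that matures interleukin-1 beta, fell from 202 ± 24.6 to 119 ± 7.97 FPKM (-0.75), and Casp4, which detects cytosolic LPS, was at 168, 158 and 184 against 74.3, 70.7, 73.5, 79.3 and 72.4 FPKM (-1.19). Mefv, encoding the sensor pyrin, was at 2.65, 2.86 and 2.84 FPKM with LPS and 0.93, 0.79, 0.71, 0.82 and 0.78 FPKM with Baf A1. Nlrp3 was not called (93.6 ± 13.2 against 86.3 ± 4.66 FPKM, adjusted p = 0.525). Over the list, 5 of 17 were called higher and 8 lower.

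Among 19 cytokines of the TNF, IL-6, IL-12, IL-10 and IL-20 families, 7 were called higher, 6 of them by at least 2-fold, and 5 lower. Both subunits of interleukin-12 were near absent with LPS alone. Il12b was at 0.39, 0.33 and 0.5 FPKM with LPS and 7.29, 6.72, 5.27, 5.8 and 6.4 FPKM with Baf A1 (log2 change 2.37, adjusted p = 1.6e-12), and Il12a at 0.48, 0.92 and 0.77 against 3.25, 4.15, 2.84, 3.03 and 2.76 FPKM (1.29). Csf2, which encodes GM-CSF, was at 1.47, 1.22 and 0.66 against 8.05, 6.64, 6.44, 5.89 and 7.41 FPKM (1.91). The groups were well apart for all 3, at low levels. Without Baf A1, Il12b was also at 7.85 ± 3.03 FPKM in LPS+dNC and at 0.148 ± 0.0492 FPKM in LPS+siAtg5. Csf3 (G-CSF) rose from 30.6 ± 8.79 to 95 ± 8.62 FPKM (1.64) and Il6 from 47.6 ± 6.09 to 109 ± 11.3 FPKM (1.17, adjusted p = 1.35e-06). Tnf was at 202, 207 and 274 FPKM with LPS and 243, 245, 230.5, 238 and 240.5 FPKM with Baf A1, and the groups overlapped (adjusted p = 0.623). Il10, an anti-inflammatory cytokine, was at 5.71, 5.98 and 11.2 against 3.75, 2.25, 3.59, 3.67 and 3.95 FPKM (-0.92, adjusted p = 3.92e-05), with LPS replicate 3 well above the other 2 of its group. Tnfsf10, the death ligand TRAIL that interferon induces, fell from 27.3 ± 4.01 to 9.8 ± 0.99 FPKM (-1.39).

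All 6 neutrophil-attracting CXC chemokines and platelet partners tested were called higher, with a median log2 change of 1.13. Cxcl1, Cxcl2 and Cxcl3 lie in a cluster on chromosome 5 and act on the receptor CXCR2. The 80 bases that hold their NF-kB letters are shown. These windows were picked only among list members called higher that hold the letters. They come from the RefSeq promoter table (GRCm38.p6, strand of the gene, 5′ to 3′) and capitals mark GGGANTTTCC, searched on both strands.

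Cxcl3, chr5:90785993-90786072, plus strand: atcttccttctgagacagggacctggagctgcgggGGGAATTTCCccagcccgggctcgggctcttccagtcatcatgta
Cxcl1, chr5:90891139-90891218, plus strand: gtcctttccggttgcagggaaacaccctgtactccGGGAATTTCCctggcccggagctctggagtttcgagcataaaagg
Cxcl2, chr5:90903767-90903846, plus strand: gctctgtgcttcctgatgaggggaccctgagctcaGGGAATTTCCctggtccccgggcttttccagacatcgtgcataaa

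These letters were found in 3 of the 5 list members with a promoter and in 0.501% of the 8990 tested genes with one. They were also in 3 of 12 promoters of the TNF, IL-6, IL-12, IL-10 and IL-20 list and 3 of 20 of the NF-kB list, which had calls in both directions. Of genes called at least 2-fold higher 2.67% of promoters held them, and of those called at least 2-fold lower 0.541%. Cxcl3 was at 49.3, 56.8 and 63.5 FPKM in the LPS libraries and 462, 473, 301, 392 and 357 FPKM in the LPS+Baf A1 libraries (7.02-fold in group means, adjusted p = 3.3e-05). Cxcl1 was at 10.1, 9.77 and 9.37 against 72.3, 68.2, 47.8, 54.3 and 54.8 FPKM (6.11-fold), and Cxcl2 at 198, 202 and 219 against 406, 430.3, 327, 377 and 375 FPKM (1.86-fold, adjusted p = 0.00243). For each of the 3 genes every LPS+Baf A1 library was above the 17 others, and replicate 3 was the lowest of the 5. Of 16 other chemokines, 5 were called higher and 6 lower. The rises included Ccl9, from 155 ± 31.7 to 347 ± 10.7 FPKM (1.17), and the falls were of Cxcl9, Cxcl10, Cxcl13, Ccl4, Ccl7 and Ccl12. Cxcl10, a ligand of CXCR3 that interferon induces, was at 1735, 1713 and 2289 against 893, 875, 936, 910.5 and 899 FPKM (-1.07), and Ccl7, a monocyte chemokine, at 1272, 1279 and 1747 against 677, 647, 732, 695 and 687 FPKM (-1.04). Ccl5, the most abundant chemokine gene per length, was not called at 7081 ± 1107 against 7599 ± 302 FPKM (adjusted p = 0.224, and 0.00527 without LPS replicate 3).

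**Figure D2:**
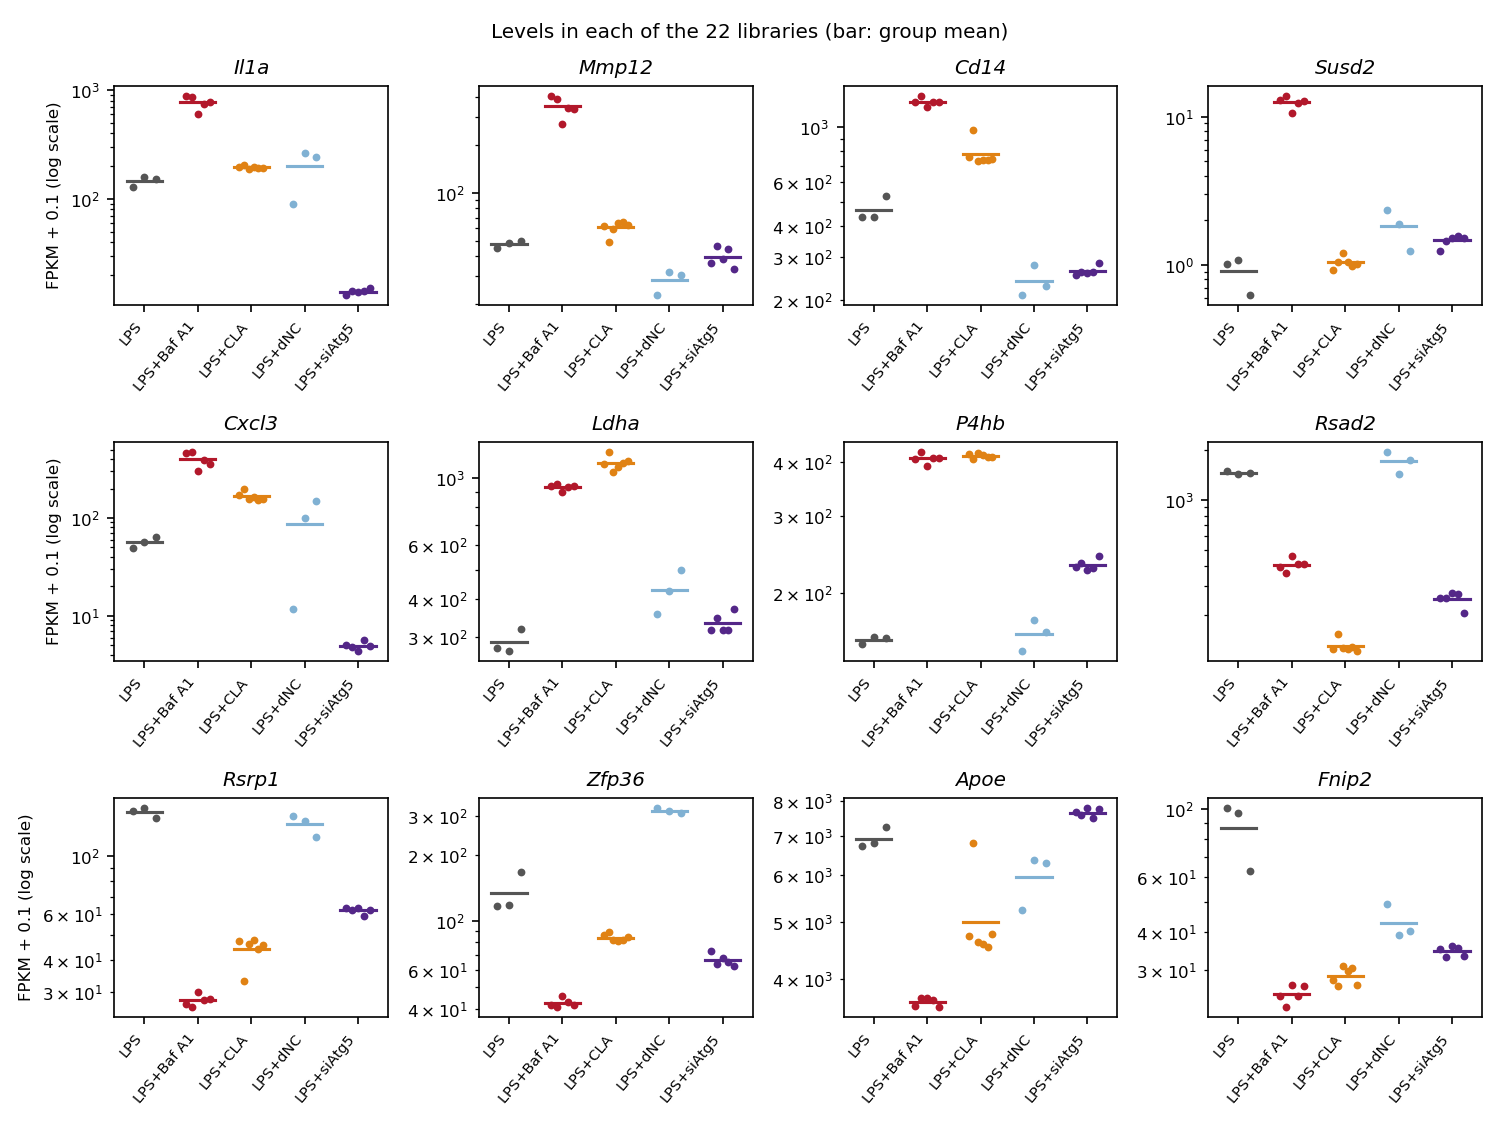
FPKM of 12 genes in all 22 libraries (log axis, values drawn as FPKM + 0.1), with 1 point per library, a bar at the group mean, and the 5 groups side by side in each panel, LPS leftmost and LPS+Baf A1 beside it. In the upper row the 5 LPS+Baf A1 points of Il1a, Mmp12, Cd14 and Susd2 lie above all other libraries, and in the lower rows those of Rsrp1, Zfp36 and Apoe lie below them.

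Genes of the receptor chain for LPS changed in both directions. Of 26 Toll-like receptors, co-receptors and adaptors, 5 were called higher and 10 lower. Cd14, which hands LPS to the receptor, was at 434, 433 and 526 FPKM in the LPS libraries and 1263, 1339.96, 1212, 1268 and 1263 FPKM with Baf A1 (1.45, adjusted p = 5.84e-12), above all 17 other libraries. Tlr4 itself was at 34.2, 31.1 and 25 against 18.9, 17.3, 18.4, 18.6 and 19.1 FPKM (-0.67), Ly96, which encodes its partner MD-2, fell by 0.62, and the adaptor Myd88 fell by 0.48. Tlr3, an endosomal sensor of double-stranded RNA, went from 72.1 ± 6.87 to 31.4 ± 1.75 FPKM (-1.17). With the GC and length trend removed, 8 genes of this list were called higher in place of 5.

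Zfp36 and several other genes of the feedback and NF-kB lists were lower. Zfp36 encodes tristetraprolin, which binds AU-rich elements in the mRNAs of cytokines and speeds their decay. It was at 117, 118 and 166 FPKM with LPS and 41.3, 40.7, 45.8, 42.7 and 41.6 FPKM with Baf A1, 3.16-fold lower in group means (log2 change -1.62, SE 0.0785, adjusted p = 1.64e-13). LPS replicate 3 was the highest library and all LPS+Baf A1 libraries were below the other 17. Dusp2, a phosphatase of MAP kinases, was at 22.7, 23 and 35 against 11.9, 12.1, 11.6, 11.8 and 11 FPKM (-1.11), and the ubiquitin ligase Peli1 at 63.9, 60.9 and 61.9 against 31.5, 28.1, 32.8, 30.8 and 31.4 FPKM (-0.99). The NF-kB subunit gene Rel fell by 0.74 and Nfkbiz, of the atypical inhibitor family, by 0.57. Nfkb1 (106 against 106 FPKM) and Nfkbia (224 against 241 FPKM) were not called. In numbers, 6 of 24 NF-kB subunits and inhibitors were called higher and 11 lower, and 4 of 24 SOCS, DUSP and other feedback genes were higher and 12 lower, which became 8 lower without LPS replicate 3.

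Genes of the interferon response formed the largest block of falls among the lists. Of 73 antiviral interferon-stimulated genes 64 were called lower (87.7%, against 25.1% of all genes) and 1 higher, with a median log2 change of -0.604, and all 19 interferon-inducible GTPases were called lower, with a median of -1. Only 2 of the 73 antiviral genes and 0 of the 19 GTPases lay outside all 17 other libraries, against 4.8% of all genes below and 2.55% above. Low levels of these genes were thus not particular to LPS+Baf A1. Without LPS replicate 3 the falls numbered 63 and 18, and 2 antiviral genes were called higher in place of 1. Upstream, Ifnb1, which encodes interferon beta, was at 3.91, 3.69 and 5.07 FPKM with LPS and 0.9, 1.07, 1.33, 1.04 and 1.08 FPKM with Baf A1, 3.9-fold lower in group means (-1.32, adjusted p = 9.06e-09). The transcription factor gene Irf1 was at 199.5, 205 and 178 against 66.5, 66.2, 75.1, 71.2 and 69.8 FPKM (-1.46, adjusted p = 6.67e-14), with no overlap. Stat2 and Irf9, parts of the factor that binds the interferon-stimulated response element (ISRE), fell by 0.75 and 0.52. Tbk1 and Ikbke, the kinases that activate IRF3, fell by 0.60 and 0.67. In the list of interferons, receptors, STATs and IRFs as a whole, 12 of 25 were called lower and 7 higher.

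The ISRE letters TTTCNNTTTC, searched on both strands, were present in the 250 bases before the start in 24 of 60 antiviral genes (40%) and 9 of 10 GTPases (90%) with a RefSeq promoter, against 3.54% of all 8990 tested genes with one. They were found in 26 of the 185 promoters of genes called at least 2-fold lower (14.1%) and in 1 of 187 promoters of genes called at least 2-fold higher (0.535%). The windows below belong to genes of these lists with large falls, picked only among those that hold the letters. Each is 80 bases on the strand of the gene, 5′ to 3′, GRCm38.p6, with the match in capitals. Where the capitals do not read TTTC, the match is on the other strand.

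Rsad2, chr12:26456528-26456607, minus strand: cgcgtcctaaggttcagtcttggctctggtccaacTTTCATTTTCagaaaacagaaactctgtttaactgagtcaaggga
Slfn9, chr11:82991831-82991910, minus strand: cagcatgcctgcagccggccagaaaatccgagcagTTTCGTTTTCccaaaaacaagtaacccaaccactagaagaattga
Ifi207, chr1:173741810-173741889, minus strand: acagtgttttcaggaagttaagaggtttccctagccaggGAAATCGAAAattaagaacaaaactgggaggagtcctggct
Tgtp1, chr11:48992279-48992358, minus strand: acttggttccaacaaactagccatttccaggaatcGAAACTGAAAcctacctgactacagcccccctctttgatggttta

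Rsad2 encodes viperin, which blocks viral replication by making a chain-terminating nucleotide. It was at 1499.8, 1426 and 1452 FPKM in the LPS libraries and 389.6, 359.9, 459.5, 411 and 408 FPKM with Baf A1, 3.6-fold lower in group means (adjusted p = 4.48e-13). Ifi207, of the DNA-sensor family on chromosome 1, was at 218, 202 and 218 against 64, 62.4, 65.7, 64 and 64 FPKM (-1.72), and Slfn9 at 80.8, 79 and 60.1 against 18.5, 16.6, 20.2, 19.8 and 19.9 FPKM (-1.88). All groups were far apart. Of Tgtp1, 81.2% of 50-base windows occur in other genes, so its values of 10.5 and 2.3 FPKM are uncertain. The largest falls of the comparison were of genes that interferon is known to induce. Ly6a, a small surface antigen, was at 68.1, 77 and 103 FPKM with LPS and 5.58, 6.27, 8.49, 8.2 and 8.66 FPKM with Baf A1 (11.1-fold lower), and Slfn4, a Schlafen gene of myeloid cells, at 541, 558 and 548 against 68, 52.5, 66.2, 63 and 64.3 FPKM (8.74-fold lower, adjusted p = 1.47e-16). Oas2, a synthetase of the 2-5A messenger, was at 110.1, 112 and 103 against 28.4, 27.7, 28.8, 28.5 and 29.6 FPKM (-1.88), and Iigp1, a GTPase that attacks pathogen vacuoles, at 186, 175 and 207 against 42.9, 37.9, 48.1, 45 and 44.4 FPKM (-2.09). Group means of Ly6a, Slfn4, Oas2 and Iigp1 were 3.01, 81.2, 31 and 13.3 FPKM in LPS+CLA. They were 13.1, 70, 32.1 and 46.8 FPKM in LPS+siAtg5 and 120, 846, 169 and 175 FPKM in LPS+dNC. A few members stood outside the fall. Slfn2 was not called (528 ± 20.7 against 526 ± 14.9 FPKM), and Bst2, which tethers budding virus, rose by 0.23 (adjusted p = 0.00421, but 0.0641 without LPS replicate 1).

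**Figure D3:**
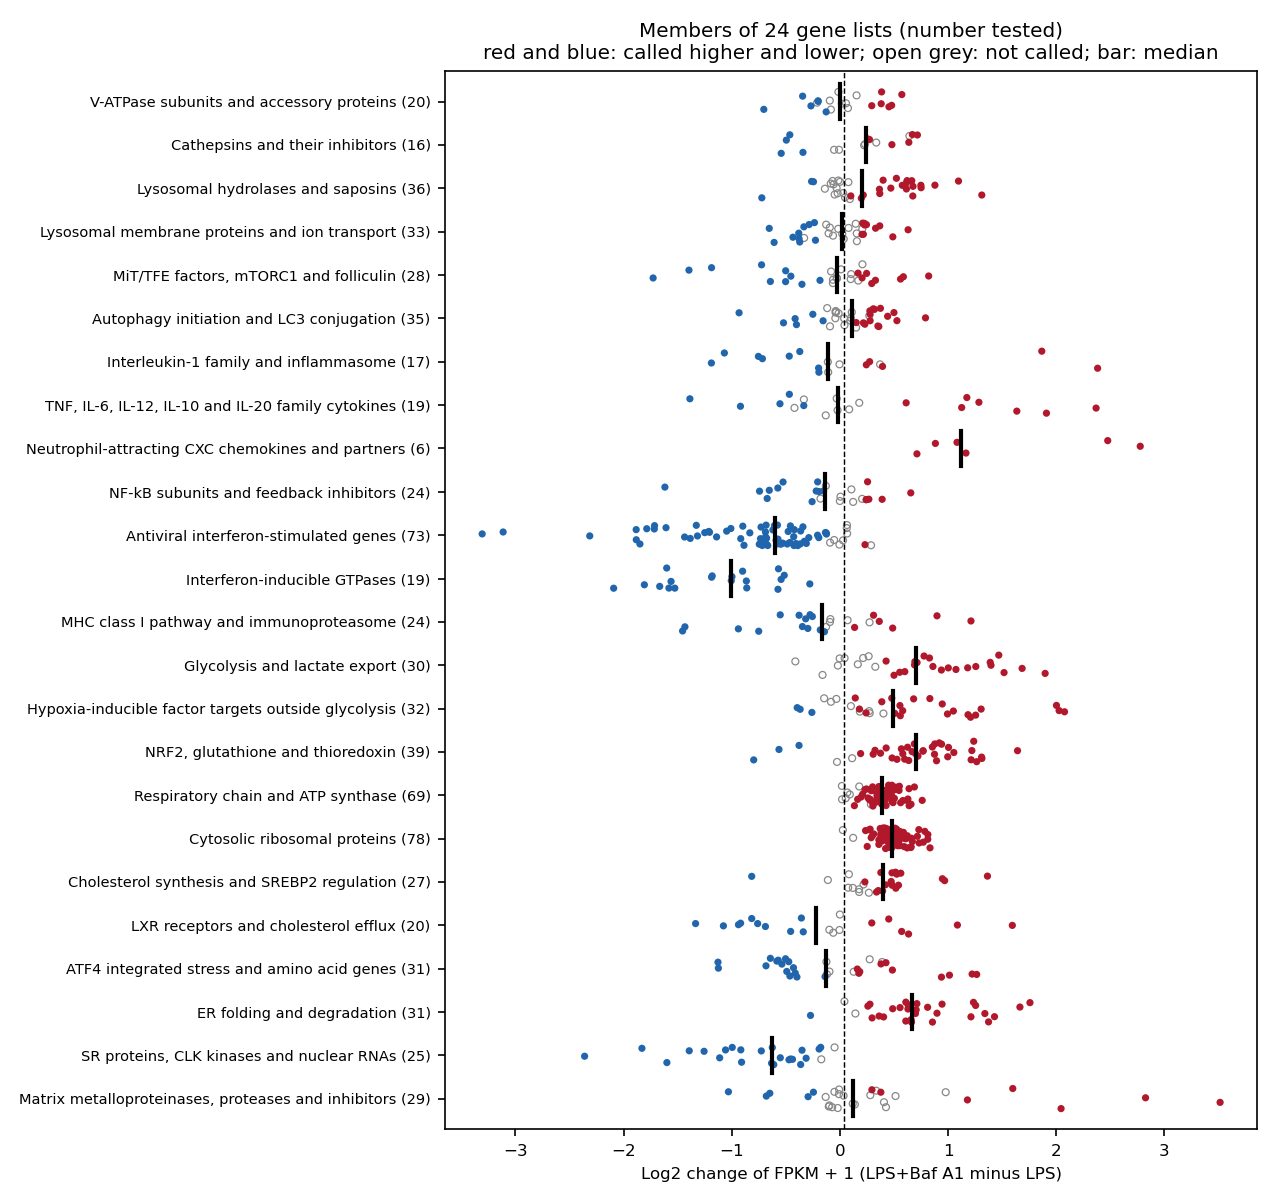
Log2 change (LPS+Baf A1 minus LPS) of every tested member of 24 gene lists, with 1 point per gene, filled where the gene was called, and a black bar at the median of the list. The dashed line is the median of all genes, 0.0386; the members of the antiviral and GTPase lists and of the SR and CLK list lie mostly left of it, and those of the ribosomal, respiratory chain, ER folding and NRF2 lists mostly right of it.

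Genes of class I antigen presentation split. Of 24 genes, 13 were called lower and 6 higher. B2m, the light chain of class I molecules, was at 6546, 5823 and 7612 FPKM with LPS and 4652, 4525, 4518, 4392 and 4508 FPKM with Baf A1 (-0.55), and the transactivator Nlrc5 at 56.1, 58.2 and 58.8 against 28.2, 30.5, 30.3, 29.1 and 30.2 FPKM (-0.94, adjusted p = 3.17e-13). The non-classical H2-Q7 fell by 1.43, though 26.4% of its windows are shared. Calr, Pdia3 and Canx, chaperones of the peptide loading complex that also serve protein folding at large, were among the 6 that rose (1.21, 0.90 and 0.49). In the class II list the gene H2-Ab1 went the other way from its partner Cd74. H2-Ab1 was at 1.71, 2.03 and 2.77 FPKM against 12.1, 12.3, 10.2, 12.8 and 10.7 FPKM (2.0, adjusted p = 3.58e-13), above all 17 other libraries, and Cd74, the invariant chain, at 30.2, 32.5 and 43.7 against 17.7, 19.2, 17.4, 17.9 and 16.5 FPKM (-0.94).

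Most genes of the glycolysis list rose. Of 30 genes for glucose uptake, glycolysis and lactate export, 21 were called higher (70%, against 32.7% of all genes) and none lower by limma, with a median log2 change of 0.704. Leaving out LPS replicate 3 gave 21 higher and 1 lower. A further 32 targets of hypoxia-inducible factor (HIF) outside glycolysis gave 21 higher and 3 lower (median 0.494). Hif1a itself was not called, at 85, 79.5 and 85.8 FPKM with LPS and 102, 95.6, 89, 93.5 and 95.2 FPKM with Baf A1 (adjusted p = 0.263), although the groups did not overlap, and was called higher with only the libraries of both groups (adjusted p = 0.00987), with library weights (0.0071) and with the GC and length trend removed (0.0124). The HIF core letters ACGTG were found, on either strand, in 14 of 28 promoters of the glycolysis list (50%) and 18 of 26 of the other targets (69.2%), against 25.5% of all promoters. These letters also lie inside the CLEAR motif. They were in 29.4% of promoters of genes called at least 2-fold higher and in 18.9% of those called at least 2-fold lower. The autophagy receptor and fusion list, with 6 called higher and 7 lower of 27, held them in 54.5% of its promoters. The windows belong to the 3 HIF targets with the largest rises among those that hold the HIF core letters. They are printed on the strand of the gene, 5′ to 3′, GRCm38.p6, with matches on either strand in capitals.

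Ak4, chr4:101419453-101419532, plus strand: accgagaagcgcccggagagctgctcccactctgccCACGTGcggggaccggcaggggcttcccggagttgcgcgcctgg
P4ha2, chr11:54100809-54100888, plus strand: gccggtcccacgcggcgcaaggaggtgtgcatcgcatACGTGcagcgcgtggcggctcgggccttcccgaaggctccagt
Fam162a, chr16:36071600-36071679, minus strand: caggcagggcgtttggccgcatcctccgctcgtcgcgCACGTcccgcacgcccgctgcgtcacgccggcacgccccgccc

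Ak4, a mitochondrial adenylate kinase, was at 0.38, 1.06 and 0.7 FPKM with LPS and 7.16, 6.06, 4.21, 5.82 and 8.05 FPKM with Baf A1 (2.08, adjusted p = 1.05e-08). P4ha2, a prolyl hydroxylase of collagen, was at 1.45, 1.65 and 1.56 against 9.71, 9.85, 8.43, 9.33 and 9.78 FPKM (2.03), and Fam162a at 7.83, 8.28 and 10.4 against 42.5, 41, 35.4, 38 and 34.7 FPKM (2.0). These 3 genes were low with LPS alone, and LPS and LPS+Baf A1 did not overlap. In the same order, their means were 7.55, 6.69 and 48.1 FPKM in LPS+CLA, against 6.26, 9.42 and 38.3 FPKM in LPS+Baf A1. They were 2.24, 2.34 and 27.3 FPKM in LPS+dNC and 0.916, 2.41 and 11.1 FPKM in LPS+siAtg5. Egln1, the oxygen-sensing hydroxylase that marks HIF for destruction, rose from 6.58 ± 0.47 to 17.1 ± 0.762 FPKM (1.26). In glycolysis, Ldha, which turns pyruvate into lactate, was at 278, 271 and 319.8 against 939, 950.1, 897, 932 and 937 FPKM (3.22-fold, adjusted p = 8.6e-14), and Tpi1, triosephosphate isomerase, at 167, 171 and 213 against 511, 537, 513, 541 and 519 FPKM (2.86-fold). LPS replicate 3 was the highest of its group for both and still far below the LPS+Baf A1 libraries. Gpi1 and Bsg, a chaperone of lactate transporters, rose by 1.0 and 0.83. Pgk1, Pgam1 and Gapdh rose by 1.26, 1.39 and 0.86, with 53.9%, 36.2% and 24.7% of their windows shared with other genes. Pfkfb3 (86.8 against 88.9 FPKM) and the myeloid hexokinase Hk3 (187 against 184 FPKM) were not called.

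Iron genes gave 15 calls higher and 7 lower of 30. Tfrc, the transferrin receptor whose mRNA is stabilised when cells lack iron, was at 9.73, 8.62 and 6.84 FPKM with LPS and 13.3, 12.6, 12.6, 12.4 and 13.6 FPKM with Baf A1 (0.57, adjusted p = 3.21e-05). The storage gene Fth1, the most abundant of the list, was at 31288, 30005 and 36069.7 against 44266, 43726, 41857, 42579 and 42658 FPKM (0.41), and Hmox1, haem oxygenase, rose from 512 ± 28.1 to 744 ± 26.9 FPKM (0.54). Slc25a37, the iron importer of mitochondria, fell from 42.9 ± 3.08 to 24.5 ± 0.199 FPKM (-0.78).

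Most antioxidant and NADPH-producing genes rose. In the NRF2, glutathione and thioredoxin list 34 of 39 were called higher and 3 lower (median 0.7), and in the pentose phosphate and NADPH list 11 of 15 higher and 1 lower (median 0.657). Cat, catalase, was at 23.9, 22 and 23.1 FPKM with LPS and 55, 57.1, 51.8, 53.1 and 56.5 FPKM with Baf A1 (1.21, adjusted p = 5.34e-14). Gclm, the regulatory subunit of glutathione synthesis, was at 11.3, 13.5 and 16.6 against 36.7, 36, 28, 34.4 and 33.6 FPKM (1.24), and Slc7a11, the cystine importer, at 9.86, 10.4 and 6.99 against 24.5, 26.1, 18.8, 22.5 and 23.8 FPKM (1.27). Prdx1 rose from 1160 ± 175 to 2313 ± 74.2 FPKM and was above all 17 other libraries. The 3 that fell included Nfe2l2, which encodes NRF2 itself, at 99.3, 94.8 and 92.9 against 62.7, 62.9, 64.4, 65.1 and 67 FPKM (-0.56), and Osgin1 (-0.80). Keap1, the sensor that holds NRF2 back, was not called (32.8 against 32.2 FPKM). The antioxidant response letters TGANNNNGC were in 44.1% of the promoters of this list and in 41.9% of all. Letters this common in all promoters are a weak means to set a list apart, so no conclusion is drawn from this search. In the pentose phosphate pathway, Pgd was at 126, 126 and 119.6 against 243, 245, 230.4, 244 and 246 FPKM (0.96, adjusted p = 8.05e-15) and G6pdx, its entry enzyme, rose from 122 ± 8.12 to 218 ± 2.17 FPKM. Of 8 genes of the phagocyte NADPH oxidase, which uses NADPH to make superoxide, 5 were called higher and none lower by limma, led by Ncf1 (264 ± 13 to 435 ± 9.98 FPKM).

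Most genes of the mitochondrial, ribosomal and proteasome lists rose, by smaller amounts. Of 69 nuclear genes of the respiratory chain and ATP synthase 62 were called higher and none lower, with a median log2 change of 0.394. Of 35 genes of the tricarboxylic acid cycle and fatty acid oxidation 29 were higher and 2 lower (0.393), of 78 cytosolic ribosomal proteins 75 higher and none lower (0.481), and of 34 proteasome subunits 20 higher and 1 lower (0.193). Atp5a1, the alpha chain of ATP synthase, rose from 144 ± 3.66 to 216 ± 2.2 FPKM (0.58), and Rpl3 from 151 ± 11 to 266 ± 6.17 FPKM (0.81, with 35% of its windows shared with other genes). Ribosomal and respiratory chain genes have short transcripts, and within LPS their medians were 0.214 and 0.193 higher in replicate 3 than in the mean of replicates 1 and 2 on the log2 scale. Without LPS replicate 3, 76 and 63 were called higher. With the GC and length trend removed, 74 and 58 were, and the medians above that of all genes went from 0.443 to 0.309 and from 0.355 to 0.25. Without that replicate the calls of proteasome subunits became 28 higher and 2 lower, and the 2 lower of the tricarboxylic acid list became 1.

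Most genes of cholesterol synthesis rose, and genes of cholesterol efflux split. Of 27 genes of cholesterol synthesis and its SREBP2 control, 18 were called higher and 1 lower (median 0.396). Mvd, of the mevalonate pathway, was at 3.8, 3.04 and 2.54 FPKM with LPS and 6.21, 7.12, 6.49, 6.72 and 8.1 FPKM with Baf A1 (0.95, adjusted p = 1.24e-06). Mylip, a ubiquitin ligase that LXR induces, was the 1 that fell, from 20.8 ± 0.76 to 11.4 ± 0.448 FPKM (-0.81). Of 20 LXR and efflux genes, 10 were called lower and 6 higher. Apoe, the main lipoprotein component of the brain, was at 6718, 6789 and 7243 FPKM against 3597, 3720.02, 3715, 3677 and 3589 FPKM (-0.92, adjusted p = 1.9e-08), below all 17 other libraries, and it was the largest fall in mean FPKM of any gene. Pltp, the phospholipid transfer protein, fell from 152 ± 19 to 59.7 ± 5.32 FPKM (-1.33), while the transporter gene Abca7 rose from 10.7 ± 1.9 to 23.6 ± 1.19 FPKM (1.09).

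Of 40 genes of fatty acid synthesis, desaturation and PPAR, 20 were called higher and 5 lower. Acot7, an acyl-CoA thioesterase, rose by 1.39 and Acss2, which makes acetyl-CoA from acetate, by 1.3. Plin2, the coat protein of lipid droplets, was at 452, 471 and 523 FPKM with LPS and 267, 259.99, 297, 288 and 273 FPKM with Baf A1 (-0.80, adjusted p = 9.1e-08). The desaturase genes Fads1 (7.11 ± 1.19 against 6.93 ± 0.394 FPKM) and Fads2 (0.963 ± 0.0929 against 1.38 ± 0.273 FPKM) and the receptor gene Pparg (0.98 ± 0.344 against 0.528 ± 0.145 FPKM) were not called, with adjusted p = 0.914, 0.437 and 0.22. In the eicosanoid list 12 of 25 were called higher and 5 lower. Alox5ap, which presents arachidonic acid to 5-lipoxygenase, rose from 21.9 ± 3.37 to 52.8 ± 5.87 FPKM (1.24), and Hpgds, the prostaglandin D2 synthase of haematopoietic cells, fell from 35.9 ± 1.27 to 15.4 ± 1.39 FPKM (-1.18). Ptgs2, cyclooxygenase-2, was not called (113 against 127 FPKM).

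Most folding genes of the endoplasmic reticulum (ER) rose, and genes of the integrated stress response split. Of 31 ER folding and degradation genes 28 were called higher and 1, the sensor gene Atf6, lower, with a median log2 change of 0.663. The call of Atf6 was lost with the GC and length trend removed (adjusted p = 0.194). P4hb, a protein disulphide isomerase, was at 153, 158 and 158 FPKM with LPS and 405, 421, 391, 409 and 408 FPKM with Baf A1 (1.38, SE 0.0425, adjusted p = 1.38e-16). Sdf2l1 was at 18.9, 17.6 and 19.6 against 63.2, 67.5, 63, 70.6 and 64 FPKM (1.76), and Hyou1, a chaperone of the ER lumen, at 39, 38.8 and 29.7 against 93.3, 101, 91.6, 100.2 and 102 FPKM (1.43). Of 31 ATF4 and amino acid stress genes, 15 were called lower and 10 higher. Atf4 fell from 237 ± 12.4 to 169 ± 2.53 FPKM (-0.49, adjusted p = 5.16e-10). Ddit3, which encodes CHOP, the death-linked factor of the unfolded protein response, was at 140.4, 145 and 175 against 66.5, 66.8, 72.1, 70.2 and 72.1 FPKM (-1.12), and its target Trib3 at 17.3, 19.1 and 19.9 against 7.53, 8.21, 8.69, 8.2 and 7.58 FPKM (-1.13). Psat1, a serine synthesis gene that ATF4 is known to induce, rose by 1.22. Of 26 cytosolic chaperones, 17 were higher and 2 lower (median 0.332), with Hspa1b at 2.77 against 7.06 FPKM, of which 62.3% of windows are shared.

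Splicing regulators gave the most uniform fall outside the interferon lists. Of 25 SR proteins, CLK kinases and nuclear RNAs 23 were called lower and none higher by limma (median -0.624), and 16 of the 25 lay outside all 17 other libraries, against 4.8% of all genes below and 2.55% above. SR proteins choose exons, and the CLK kinases phosphorylate them. Several of these genes are known to make transcripts with retained introns or poison exons, so FPKM may pool productive and unproductive forms. Rsrp1, an arginine and serine rich nuclear protein, was at 148, 153 and 141 FPKM with LPS and 26.9, 26.3, 29.9, 28 and 28.3 FPKM with Baf A1, 5.28-fold lower in group means (log2 change -2.36, SE 0.0844, adjusted p = 1.49e-15). Clk1 was at 49.6, 44.6 and 49.2 against 15.8, 13.2, 14.1, 15.6 and 16.9 FPKM (-1.6), and Pnisr at 24, 21.4 and 15.8 against 5.18, 4.42, 4.96, 5.09 and 5.1 FPKM (-1.83). Luc7l3 and Tra2a, which bind at splice sites and exonic enhancers, fell by 1.39 and 1.26, and Son and Rbm39, of nuclear speckles, by 0.92 and 1.06. The groups did not overlap for any of these 7. Srsf5 was not called (113 ± 7.83 against 99.7 ± 3.25 FPKM, adjusted p = 0.0647, and 0.0278 without LPS replicate 3). With the GC and length trend removed 23 were called lower and 1 higher.

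**Figure D4:**
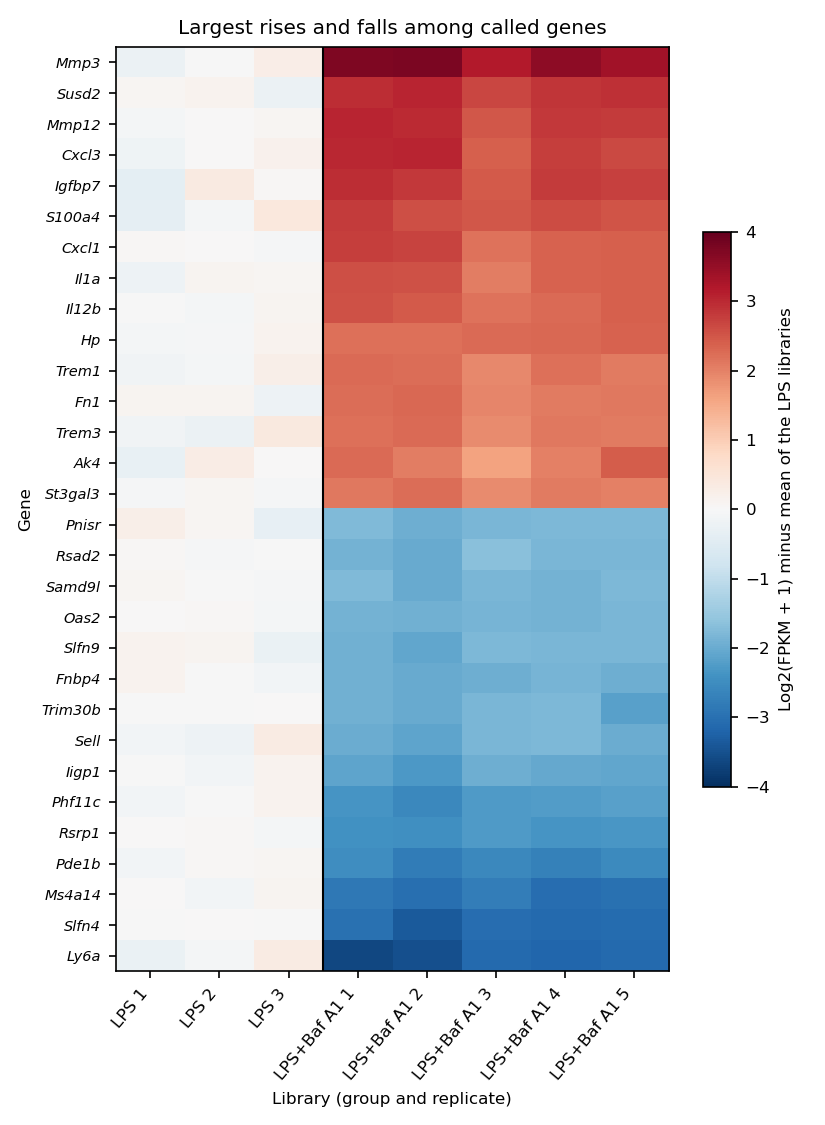
Log2(FPKM + 1) of the 15 genes with the largest rises and the 15 with the largest falls in the 8 libraries, each as its difference from the mean of the 3 LPS libraries (colour scale from -4 to 4). The 5 LPS+Baf A1 columns differ little from each other; LPS+Baf A1 replicate 3 is paler than the other 4 for Mmp3, Mmp12, Cxcl3 and Cxcl1.

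A small set of matrix proteases rose steeply. Of 29 metalloproteinases, other proteases and inhibitors only 7 were called higher and 5 lower, shares of 24.1% and 17.2% that are below those of all genes, but 5 of the 7 rose by at least 2-fold. Mmp3, Mmp10 and Mmp12 lie in a cluster on chromosome 9 and degrade matrix proteins and elastin. The AP-1 letters TGANTCA, which read alike on both strands and can overlap the antioxidant response letters, were found in 6 of 22 promoters of the list (27.3%) and in 5.49% of all. They were in 10.7% of promoters of genes called at least 2-fold higher and in 13% of those called at least 2-fold lower. The windows of the 3 genes are shown in the same form, with those letters in capitals. These windows were picked only among members called higher that hold the letters.

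Mmp3, chr9:7445740-7445819, plus strand: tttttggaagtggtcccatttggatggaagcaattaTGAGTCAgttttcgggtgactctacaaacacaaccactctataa
Mmp12, chr9:7347294-7347373, plus strand: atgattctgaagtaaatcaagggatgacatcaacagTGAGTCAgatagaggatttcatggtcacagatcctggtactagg
Mmp10, chr9:7502243-7502322, plus strand: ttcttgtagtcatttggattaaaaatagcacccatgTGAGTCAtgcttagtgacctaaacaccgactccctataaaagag

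Mmp3, the gene with the largest rise of the comparison among those named, was at 0.72, 1 and 1.45 FPKM with LPS and 25.9, 26.4, 17.3, 23.5 and 19.8 FPKM with Baf A1 (log2 change 3.52, SE 0.296, adjusted p = 3.31e-09). Mmp12 was at 45.3, 48.3 and 50.1 against 406, 389, 272, 343 and 335 FPKM (2.83), and Mmp10 at 0.24, 0.16 and 0.23 against 2.2, 2.09, 1.22, 1.75 and 1.56 FPKM (1.18). In each, LPS+Baf A1 replicate 3 was the lowest of its group and above every LPS library. Timp1, an inhibitor of metalloproteinases, rose by 1.6. Mmp13 (386 ± 33.3 against 553 ± 53.8 FPKM), the collagenase, more abundant per length than Mmp3, was not called (adjusted p = 0.0931), but it was called higher with only the libraries of both groups (adjusted p = 0.000375), with library weights (0.000398) and with the GC and length trend removed (0.011). Markers of fibroblasts, mural and endothelial cells summed to 20.7 to 24 FPKM in LPS and 44.7 to 59 FPKM in LPS+Baf A1, and their part in these rises was not tested. The list of immediate-early and AP-1 factors gave 9 higher and 10 lower of 26. Batf2, which interferon induces, fell by 1.27.

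Microglial identity genes split. Of 31 homeostatic genes, 11 were called higher and 14 lower. Among the 12 markers used to check the cell type, all were present, with Tmem119 the lowest at 1.77 FPKM in LPS and Tyrobp, an adaptor of microglial receptors, at 642 FPKM, and their summed level was 3364 to 3790 FPKM in LPS and 3611 to 3686 FPKM in LPS+Baf A1. Cx3cr1, the fractalkine receptor, was at 9.63, 7.86 and 5.88 FPKM with LPS and 11.8, 10.9, 12.8, 12 and 11 FPKM with Baf A1 (0.55, adjusted p = 0.000437). Cd33, a sialic acid binding receptor that restrains phagocytosis, was at 21.3, 23 and 16.9 against 56.7, 59.2, 47.5, 54.5 and 56.6 FPKM (1.39), above all 17 other libraries. The complement genes C1qa and C1qc fell by 0.51 and 0.69, as did C3 (-0.55), and 7 of 18 complement genes were lower and 4 higher. The receptors Mertk, for dying cells, and Fcgr4, for antibody, fell by 0.58 and 0.86, in a list of phagocytic receptors with 7 higher and 11 lower of 35. Disease-associated microglia genes did not share a direction, with 12 higher and 8 lower of 29 (41.4% and 27.6%, against 32.7% and 25.1% of all genes). Cd9 rose by 1.29 and Lgals1 by 0.87, and Apoe, Gpnmb and Lgals3 fell by 0.92, 0.72 and 0.69. Of the immune receptors on the surface, Cd274, which encodes the checkpoint ligand PD-L1, was at 315, 305 and 334 against 120.05, 121, 125, 121 and 124 FPKM (-1.37, adjusted p = 3.22e-16), and Clec4n, the fungal sensor dectin-2, at 61.9, 68.9 and 63.4 against 261, 255, 197, 239.7 and 232 FPKM (1.85).

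Markers of astrocytes, neurons, fibroblasts and blood cells were low beside those of microglia, and some markers of border macrophages were not. Summed over the list, astrocyte markers were at 10.1 to 16 FPKM in LPS and 18.7 to 21.4 FPKM in LPS+Baf A1, with 3 of 13 called higher and 1 lower. The defining Gfap was at 1.42, 1.83 and 2.89 FPKM with LPS and 1.05, 0.81, 0.64, 1.08 and 0.92 FPKM with Baf A1 (adjusted p = 0.0561, and 0.0493 without LPS replicate 1), and the rise of the sum came mainly from the gap junction gene Gja1, at 3.37 ± 0.282 against 11.2 ± 0.533 FPKM. Of the 11 fibroblast, mural and endothelial markers tested, whose sums are given above, 5 were called higher and none lower. Fn1 accounted for much of the rise, at 6.24, 6.3 and 4.85 against 30.6, 32.1, 24.9, 27.4 and 28.3 FPKM, and Col1a1 was at 0.49, 0.4 and 0.54 against 2.54, 2.58, 1.67, 2.38 and 2 FPKM. Neuron markers summed to 16 to 20.7 FPKM in LPS and 9.15 to 12.6 FPKM in LPS+Baf A1 (none of 10 higher, 5 lower), oligodendrocyte lineage markers to 72.9 to 85.3 and 77 to 84.5 FPKM (2 of 8 higher, 1 lower), mostly from Cnp, and neutrophil and lymphocyte markers to 7.08 to 14 and 8.17 to 11.3 FPKM (1 of 2 higher). Border macrophage and monocyte markers summed to 900 to 989.9 FPKM in LPS and 629 to 679 FPKM in LPS+Baf A1 (1 of 9 higher, 3 lower), mostly from Ms4a7, at 655, 655 and 780 FPKM with LPS and 323 to 352 FPKM with Baf A1, while the defining Lyve1 and Cd163 were at 0.04 FPKM or less in all 8 libraries. Without LPS replicate 3 the falls of neuron markers were 3 in place of 5 and the rises of oligodendrocyte markers 1 in place of 2, and with the GC and length trend removed 5 border macrophage markers were lower in place of 3 and no oligodendrocyte marker was higher and 2 were lower. Ntsr2 of the astrocyte list was at 0 in all 8 libraries.

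The LPS+CLA group, whose labels name no siRNA and which had the same LPS dose and time, served to show where LPS+Baf A1 differs from another treated group. Of the 11070 genes, 2102 (19%) were called higher and 3914 (35.4%) lower in LPS+Baf A1 than in LPS+CLA. With median-of-ratios scaling of the libraries these became 2787 and 2909, so the excess of lower calls rests on the scaling. LPS+CLA replicate 2 lay apart from its group for 6 of the 12 genes given here, and without it 1992 and 4173 genes were called. Il1a, Il6 and Mmp12 were higher with Baf A1 than with CLA. Il1a was at 195 ± 4.89 FPKM in LPS+CLA (SD, n = 6) against 776 ± 111 FPKM in LPS+Baf A1 (log2 difference 1.97, limma adjusted p = 1.39e-08), Il6 at 41.2 ± 9.45 against 109 ± 11.3 FPKM (1.4, and 37.4 FPKM in LPS+CLA without replicate 2), and Mmp12 at 60.7 ± 6.22 against 349 ± 52.4 FPKM (2.5, adjusted p = 2.21e-14). Susd2, a membrane protein of unclear role in microglia, was at 0.91, 0.98 and 0.53 FPKM with LPS, 0.94 ± 0.0938 FPKM in LPS+CLA and 12.9, 13.7, 10.4, 12.2 and 12.7 FPKM with Baf A1. The interferon-induced genes Rsad2 and Cxcl10, which fell with Baf A1, were lower still with CLA. Rsad2 was at 130.2 ± 11.9 FPKM in LPS+CLA, below the 406 ± 36.3 FPKM of LPS+Baf A1 (1.63), and so was Cxcl10 (275 ± 37.1 against 903 ± 22.5 FPKM). Il10 was at 23.8 ± 2.88 FPKM in LPS+CLA and 3.44 ± 0.68 FPKM in LPS+Baf A1 (-2.49, adjusted p = 1.15e-12). Rsrp1, at 43.9 ± 5.42 FPKM, and Apoe, at 5000.3 ± 885 FPKM, were higher in LPS+CLA than in LPS+Baf A1 (-0.63 and -0.43 for Baf A1 minus CLA). For 3 of the 12 genes given here, which were picked with their values known, no difference between these groups was called. Flcn was at 15.7 ± 1.49 FPKM in LPS+CLA against 14.4 ± 0.649 FPKM (-0.12, SE 0.0566, adjusted p = 0.0748, but 0.00242 without LPS+CLA replicate 2), P4hb at 412 ± 4.74 against 407 ± 10.5 FPKM (-0.02, SE 0.0353) and Atg5 at 24.5 ± 1.09 against 24.6 ± 0.773 FPKM (0.01, SE 0.04).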

How the data were processed

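Polyadenylated RNA of 22 libraries was sequenced on an Illumina instrument, per the labels' protocols. The deposited values are FPKM, 1 per gene symbol and library, rounded to 2 decimals, per the file headers. CASAVA 1.7, Bowtie2 2.2.8, fastp 0.18.0, HISAT2 and StringTie 1.3.1 are named in the submitters' processing notes. Not given in the sources used here are the genome build and the annotation. With no read counts in use, library depth is unknown and counting intervals cannot be set. The sums of FPKM were 469750 to 506565 in LPS and 517259 to 525127 in LPS+Baf A1. The table had 15726 lines for 15725 symbols (the first of 2 lines for Plin2 was kept), and the 22 files of single libraries held the same values.

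From these values, log2(FPKM + 1) was analysed with limma 3.58.1 in R 4.3.3, with 5 group means over all 22 libraries (17 residual degrees of freedom, empirical Bayes with trend and robust options) and Benjamini-Hochberg adjustment over 11070 genes, and calls were made at 0.05. The pseudocount of 1 makes the fold change understate that of low genes. The scripts were tested on simulated data. The genes and 57 gene lists were chosen with earlier results of these data known. Named are fixed anchor genes, the 20 largest rises and falls, the 10 largest in FPKM, genes under 1 FPKM in 1 group and at 2 or more in the other, and leading members of each list. Some genes that this rule names are not reported here. Shared sequence is the share of 50-base windows of a gene's GENCODE vM21 transcripts that also occur in another gene. Exons of Bnip3, Ctsl and Arg2 overlap a gene on the other strand over 22.3%, 26.8% and 28.1% of their bases, and the protocol in the labels names no step that keeps strand. Promoters were those of RefSeq (GRCm38.p6, 8990 of 11070 genes matched), 250 bases before the start, leaving out chromosome 18. Alternatives were another pseudocount, other filters and scalings, fewer libraries, library weights, no trend, a replicate block, each LPS and LPS+Baf A1 library left out, and, chosen after seeing the data, removal of the GC and length trend and each LPS+CLA library left out.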

Additional observations from a re-analysis of the deposited data

Results flagged for a closer look

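Among 199 genes given in the text, 14 had an LPS+Baf A1 library whose distance from the nearest of the other 4 was an unusually large share of the range of the group, where chance alone gives about 1 in 20. Replicate 2 was high for Abca7 (25.73 FPKM, others 22.76 to 23.42) and Calr (1008.85, others 939.33 to 956.48) and low for Hpgds (12.94, others 15.72 to 16.37), Il10 (2.25, others 3.59 to 3.95) and Pnisr (4.42, others 4.96 to 5.18). Replicate 3 was low for Egln1 (15.75 FPKM, others 17.27 to 17.65), Gpi1 (274.28, others 294.37 to 300.2) and Pgd (230.45, others 242.72 to 245.78) and high for Lgals3 (260.36, others 224.1 to 231.32). Replicate 1 was low for Keap1 (29.23 FPKM), Lamp1 (982.13) and Pfkfb3 (85.06) and high for Pdia3 (392.44), and replicate 5 was low for Lamtor4 (26.67, others 32.32 to 33.88). None of these libraries crossed into the range of the LPS group for a called gene among them.

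Among 12 genes for which LPS+CLA levels were given, replicate 2 of that group stood apart for 6. It was high for Apoe (6797.89 FPKM, others 4528.79 to 4762.07), Cxcl10 (348.18, others 250.24 to 273.58), Il6 (60.11, others 34.13 to 39.31) and Rsad2 (153.91, others 121.85 to 128.35), and low for Il10 (18.05, others 24.18 to 25.79) and Rsrp1 (33.13, others 44.11 to 47.44). The differences from LPS+Baf A1 kept their direction and call without it.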

How the results depend on the processing

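The counts of genes called moved by less than 1.5 times under every setting run. Against LPS they were 3098 to 3891 higher and 2243 to 3420 lower over 19 settings, and 3433 higher and 3001 lower without LPS replicate 3. Leaving out 1 LPS or LPS+Baf A1 library gave 3238 to 3520 higher and 2397 to 3001 lower. Same-numbered libraries of both groups did not deviate together (correlations 0.0118, 0.0194 and -0.0527), so the numbers were not read as pairing; with a replicate block, 3369 genes were higher and 2662 lower. Median-of-ratios scaling gave 3145 higher and 3172 lower. Of the 174 called genes given in the text, 168 kept direction and call in all 19 settings. The exceptions were Atf6, Bst2, Sqstm1, Tmem119, Tyrobp and Fth1, whose change is 0 after quantile normalization because it ranks at the same place in every library of both groups. None of the 174 changed direction, but over all genes 26 of 6395 calls had the opposite direction with the GC and length trend removed, and 0 in the other settings. Of the 25 genes given as not called, 15 were called in at least 1 setting: Ccl5, Ctsb, Fads2, Gfap, Hif1a, Map1lc3b, Mmp13, Nfkbia, Nlrp3, Nos2, Pparg, Ptgs2, Srsf5, Tfe3 and Tnf. Apoe lost its call against LPS+CLA under quantile normalization (-0.21, adjusted p = 0.0938). Depth is unknown, so low genes carry an error that could not be given, and the LPS mean rests on 3 libraries.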

Other observations

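Genes of arginine, nitric oxide and itaconate metabolism were called higher in 14 of 23 cases and lower in 4. Slc7a2, the cationic amino acid transporter that feeds arginine to activated macrophages, was at 54.2, 61 and 47.5 FPKM with LPS and 199.5, 204, 167, 188 and 188 FPKM with Baf A1 (1.79, limma adjusted p = 6.68e-07). Acod1, which makes itaconate, rose from 1244 ± 122 to 1865 ± 31.4 FPKM (SD, n = 3 and 5), while Nos2 (187 ± 30.3 against 226 ± 11.6 FPKM) and Arg1 (6.95 ± 2.44 against 8.13 ± 0.778 FPKM) were not called. Arg2, the mitochondrial arginase, fell from 21 ± 1.54 to 10.4 ± 0.806 FPKM (-0.95).

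Some genes were near absent in LPS or in LPS+Baf A1. In all, 20 genes were under 1 FPKM in every LPS library and at 2 FPKM or more in every LPS+Baf A1 library, and 7 genes the reverse. Igfbp7, a secreted binding protein of insulin-like growth factors, was at 0.11, 0.84 and 0.48 FPKM with LPS and 10.3, 9.37, 6.85, 9.1 and 8.69 FPKM with Baf A1. Adgrg6, an adhesion receptor, was at 0.45, 0.5 and 0.78 against 2.78, 2.82, 3.18, 2.67 and 2.88 FPKM, and Abcb4, a phospholipid exporter, at 0.92, 0.53 and 0.68 against 5.21, 4.5, 4.19, 4.39 and 4.87 FPKM. In the other direction, Adam33, a membrane protease, was at 3.37, 3.05 and 4.15 FPKM with LPS and 0.18, 0.36, 0.32, 0.4 and 0.32 FPKM with Baf A1.

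Survival genes were mixed, with 10 of 29 genes of the p53 and cell death list called higher and 11 lower (34.5% and 37.9%, against 32.7% and 25.1% of all genes). Mcl1 fell by 0.44 and the stress genes Gadd45b and Gadd45g by 0.96 and 1.09, while Bax rose by 0.42. In the cell cycle list 17 of 38 were called higher and 4 lower, led by Tyms, thymidylate synthase, at 2.24, 2.69 and 2.8 FPKM against 7.85, 9.48, 6.08, 6.02 and 6.27 FPKM (1.17). Among granule and alarm proteins, Hp, haptoglobin, was at 10.3, 10.5 and 12.2 against 54.2, 54.5, 56.8, 57.9 and 60.3 FPKM (2.27) and the receptor Trem1 at 1.78, 1.94 and 2.61 against 13.9, 13.5, 10.6, 13.2 and 12.1 FPKM (2.14). Without Baf A1, Trem1 was also at 14.8 ± 5.31 FPKM in LPS+dNC and at 1.09 ± 0.0822 FPKM in LPS+siAtg5.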
